A study of Mus musculus with 12 samples.

Results

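C2C12 cells, a mouse myoblast line that leaves the cell cycle and fuses into contractile myotubes when serum is lowered, were profiled by bulk mRNA sequencing after 48 h of differentiation under either of 2 perturbations. One was tumor necrosis factor alpha (TNF) at 10 ng/ml throughout the 48 h, and the other was silencing of Fbxl2 with siRNA. The comparison set the 3 libraries labelled TNF against the 3 labelled Fbxl2 siRNA, out of 12 libraries in the series, over all 21232 genes of the count table. The cells, given as strain C57BL/6 and passages 5 to 10, were grown in 10% FBS and switched to 2% horse serum at confluence, and their RNA had integrity numbers of 9.7 to 10.0. A control group of 3 libraries at 48 h of differentiation with neither perturbation and a proliferating group of 3 libraries at 0 h served as reference levels. The labels do not say whether control or TNF-treated cells received a non-targeting siRNA, when the siRNA was given, or whether replicates A, B and C were separate cultures. The p-values therefore measure the spread between libraries, which may be technical.

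TNF binds its receptors on the cell surface and activates the transcription factor NF-kB, which turns on inflammatory genes together with its own inhibitors. In myoblasts, TNF is known to hold back differentiation. FBXL2 is the substrate-binding subunit of an SCF ubiquitin ligase, a complex that marks chosen proteins for degradation, and its gene promoter is the subject of the series title, together with the transcription factor SP1. The comparison asks where lowered Fbxl2 and TNF leave differentiating cells in the same place and where they leave them apart.

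The targeted gene came first. Levels are given as CPM, the count of a gene per 1000000 counts of its library after scaling between libraries, in the order of replicates A, B and C. Fbxl2 (chr9:113963637-114046191, minus strand, GRCm38) stood at 22.5, 20.6 and 23.6 CPM in the siRNA libraries, 27.7, 29.2 and 29.6 with TNF, 31.9, 32.6 and 34.4 in control cells and 27.2, 26.6 and 24.0 in proliferating cells. The siRNA libraries were lowest and did not overlap the TNF or control libraries. Fbxl2 was 1.3-fold higher with TNF than after siRNA, a log2 difference of 0.38 (SE 0.06) with an adjusted p of 4.35e-05 (edgeR's quasi-likelihood test with Benjamini-Hochberg adjustment over all genes tested). Against control, the log2 difference was -0.57 after siRNA (adjusted p = 1.67e-07) and -0.19 with TNF (adjusted p = 0.0137). Both perturbations left Fbxl2 below control.

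The Fbxl2 promoter is shown because the series concerns SP1 at that promoter. The sequence covers the 250 bases before the annotated start (RefSeq, GRCm38.p6, chr9:114026752-114027001, minus strand), 5′ to 3′, with matches to GGGCGG, the core of the SP1 box, in capitals on either strand. The RefSeq start lies inside the gene span given above, which is from GENCODE and begins further upstream.
Fbxl2: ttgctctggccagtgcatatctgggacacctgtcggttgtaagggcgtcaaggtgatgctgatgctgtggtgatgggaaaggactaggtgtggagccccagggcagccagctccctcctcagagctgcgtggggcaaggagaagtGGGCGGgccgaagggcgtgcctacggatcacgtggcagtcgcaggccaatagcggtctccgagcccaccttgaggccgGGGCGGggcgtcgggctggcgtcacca
The matches began 105 and 27 bases before the start. GGGCGG occurred in 68.1% of the 10074 promoters that could be matched to tested genes, so its presence is common. The gene for SP1 and its relatives were tested as well. Sp1 was at 190.3, 172 and 179.5 CPM with TNF and 177, 168 and 172 after siRNA, a log2 difference of 0.07 (SE 0.04) that did not pass the test (95% interval -0.02 to 0.16), and 2 of the 3 related genes tested also had intervals within 1.2-fold. The other, Sp4, was 0.39 higher with TNF on the log2 scale (adjusted p = 5.59e-04).

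The 2 groups were far apart as wholes. The first principal component of the 6 libraries held 85.4% of the variance, with the siRNA libraries between -43.5 and -41.3 and the TNF libraries between 42.4 and 42.9. Of 12736 genes with enough reads to test, 3814 (29.9%) were higher with TNF and 3891 (30.6%) were lower at an adjusted p under 0.05, here called, which makes 7705 called genes (60.5%). With the upper-quartile scaling, which shifted the median log2 difference of all genes from -0.01 to -0.07, the share of called genes that were higher with TNF was 39.7% in place of 49.5%. Most differences were small: 692 genes (5.43%) were called and at least 2-fold higher with TNF and 660 (5.18%) at least 2-fold lower, with 239 (1.88%) and 167 (1.31%) at 4-fold. In 4189 genes (32.9%) every TNF library was above every siRNA library, and in 4255 (33.4%) every one was below. For 3418 genes (26.8%) the 95% interval of the difference lay within 1.2-fold. Every gene described below as higher or lower in one group passed the test unless stated, and log2 differences are TNF minus siRNA. Library totals of the 6 ran from 26416978 to 32096007 counts. In bulk RNA, fewer cells of a type and less RNA per cell cannot be told apart, which holds for every gene described here.

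**Figure D1:**
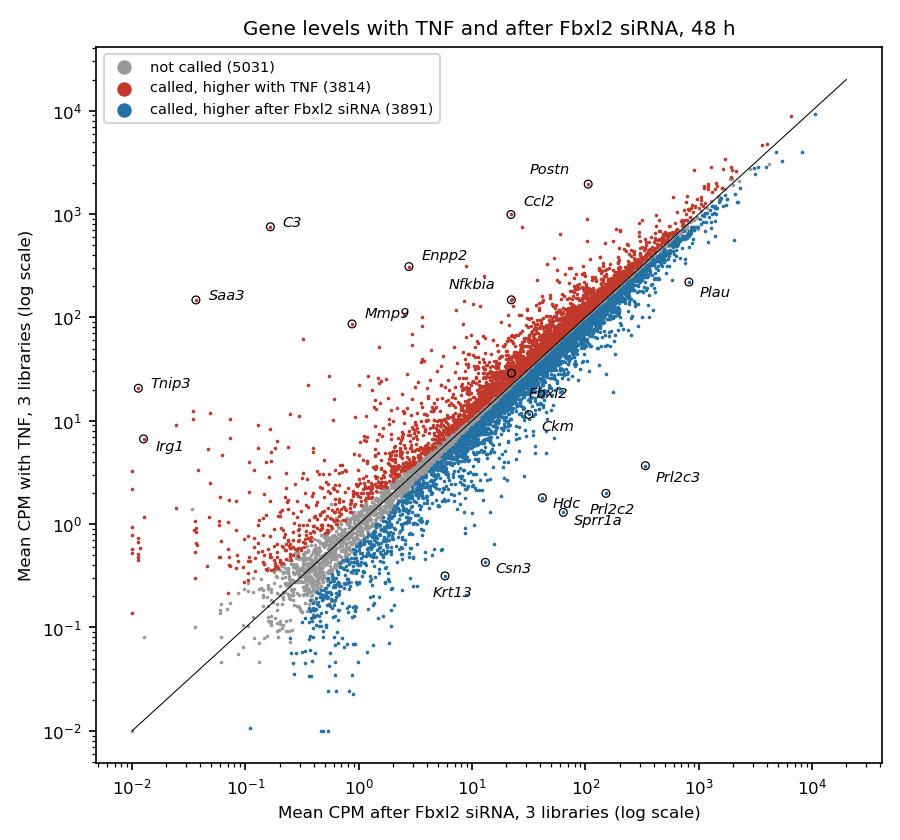
Mean CPM of each of 12736 tested genes with TNF (vertical axis) against after Fbxl2 siRNA (horizontal axis), both on log scales, each a mean of 3 libraries. Points below 0.01 CPM are drawn at 0.01, the line marks equal levels, colours mark genes called higher with TNF (3814) or higher after siRNA (3891), and circled genes are named in the text.

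The regulators of NF-kB were higher with TNF nearly throughout. Of 16 genes for NF-kB subunits, inhibitors and the IkB kinase complex, 14 were higher with TNF, 1 was lower and 1 was not called. The median log2 difference was 1.00 against -0.01 over all genes. Nfkbia, which encodes the inhibitor IkBa and is itself switched on by NF-kB, was at 147, 147 and 150.3 CPM with TNF and 21.1, 21.8 and 23.8 after siRNA, beside 21.7, 24.9 and 23.8 in control cells. TNF libraries stood apart and the siRNA libraries overlapped the control. The log2 difference was 2.74 (SE 0.06) with an adjusted p of 1.61e-19. Nfkbie, another IkB inhibitor, was at 118, 118 and 117 CPM with TNF and 6.46, 7.01 and 8.17 after siRNA, a log2 difference of 4.03 (SE 0.07). Bcl3, a nuclear IkB family member, was 2.48 higher with TNF on the log2 scale, and the subunit genes Relb, Nfkb2, Nfkb1 and Rela were 2.30, 1.29, 0.71 and 0.60 higher. The genes of the IkB kinase complex differed little: Ikbkb was 0.18 higher, Ikbkg was lower at -0.21, and Chuk had a difference of 0.10 that did not pass (adjusted p = 0.147). Without the C libraries of every group, Ikbkg was not called (-0.18). After siRNA none of the 16 was above control and 8 were below, while with TNF 14 were above control and 1 below. Against control, 31.0% of all genes were higher and 23.6% lower with TNF, and 34.1% were higher and 29.8% lower after siRNA; the comparisons share the control libraries.

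The promoters of 3 NF-kB pathway genes that were high with TNF are shown with their match to the kappaB consensus in capitals, searched on both strands, each as the 250 bases before the start (RefSeq, GRCm38.p6, 5′ to 3′). Nfkbia lies at chr12:55492648-55492897, minus strand, Nfkbie at chr17:45555450-45555699, plus strand and Tnip3, which encodes an inhibitor of NF-kB signaling, at chr6:65590148-65590397, plus strand. The Tnip3 window lies inside the gene span from GENCODE (chr6:65525313-65634040), which begins further upstream.
Nfkbia: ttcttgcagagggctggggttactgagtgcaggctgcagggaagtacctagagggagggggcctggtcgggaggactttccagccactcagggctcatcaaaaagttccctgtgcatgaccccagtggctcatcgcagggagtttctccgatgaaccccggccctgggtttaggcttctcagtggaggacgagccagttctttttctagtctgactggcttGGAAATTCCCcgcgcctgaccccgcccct
Nfkbie: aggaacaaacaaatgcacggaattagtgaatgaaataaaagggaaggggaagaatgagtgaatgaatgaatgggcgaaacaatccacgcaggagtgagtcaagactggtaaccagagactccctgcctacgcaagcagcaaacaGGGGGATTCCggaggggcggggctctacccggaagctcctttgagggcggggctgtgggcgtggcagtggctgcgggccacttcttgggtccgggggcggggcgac
Tnip3: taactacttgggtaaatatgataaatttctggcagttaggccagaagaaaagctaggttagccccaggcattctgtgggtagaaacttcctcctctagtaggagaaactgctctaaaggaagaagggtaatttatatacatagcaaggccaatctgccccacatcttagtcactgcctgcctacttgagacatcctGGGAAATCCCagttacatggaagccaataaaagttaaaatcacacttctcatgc
The matches began 29, 106 and 54 bases before the start. Such a match was present in 6.42% of all 10074 promoters, in 8 of the 12 NF-kB list genes with a promoter entry, and in 37 of 175 promoters (21.1%, Clopper-Pearson 95% interval 15.3 to 27.9) of genes at least 4-fold higher with TNF. It was also present in 5 of the 35 genes with a promoter entry in the 3 contractile lists described below, most of which were lower with TNF. In genes at least 4-fold higher after siRNA it was present in 4 of 123 (3.25%, interval 0.893 to 8.12), and at a threshold of 2-fold in 29 of 495 (5.86%, interval 3.96 to 8.31). These intervals cover counting error only, and a match in these windows, 250 bases before to 50 after the start, is a description of letters.

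Among TNF receptors and their adaptors, 9 of 14 were higher with TNF, 1 was lower and 4 were not called. Birc3, which encodes the ubiquitin ligase cIAP2 of the receptor complex, was at 15.9, 16.2 and 16.3 CPM with TNF and 0.533, 0.442 and 0.832 after siRNA, a log2 difference of 4.75 (SE 0.17). Birc2, Traf3, Tnfrsf1b, Traf2 and Traf1 were 1.06, 0.97, 0.89, 0.86 and 0.81 higher. The receptor gene Tnfrsf1a was slightly lower with TNF, at 106, 116 and 114 CPM against 124, 123 and 123 (log2 difference -0.14, adjusted p = 0.0276). It was not called with DESeq2 (-0.12) or without replicate A of TNF (-0.10) or any 1 replicate of siRNA (-0.14 to -0.13), nor without the A or C libraries of every group (-0.09 and -0.15).

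Complement and chemokine genes had the highest medians of all lists in favour of TNF. All but 1 of 16 chemokine and cytokine genes were higher, with a median log2 difference of 3.55. Ccl2, which encodes a chemokine that attracts monocytes, was at 964, 1002 and 1004 CPM with TNF, 21.7, 20.9 and 23.4 after siRNA and 7.88, 9.47 and 9.78 in control cells. Proliferating cells were at 26.5, 25.8 and 27.0 CPM, above the siRNA libraries. Both perturbations stood above control, the siRNA by 1.29 on the log2 scale, and the difference between them was 5.49 (SE 0.06) with an adjusted p of 4.32e-23, the smallest of all genes. Cxcl9, Cxcl16 and Cxcl10 were 5.94, 5.11 and 4.78 higher, Ccl7 and Ccl5 were 4.30 and 3.72 higher, and the cytokine genes Il6 and Csf1 were 3.77 and 1.83 higher. Il33, an alarmin, was the exception at 27.5, 26.7 and 25.5 CPM with TNF, 40.2, 40.4 and 45.6 after siRNA and 82.4, 80.8 and 78.2 in control cells. It was below control in both and 0.66 lower with TNF than after siRNA (adjusted p = 2.31e-08).

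All 12 genes of complement and the acute phase were higher with TNF, with a median of 4.97. C3, the central complement component, was at 795, 704 and 759 CPM with TNF and 0.142, 0.204 and 0.151 after siRNA. As the siRNA libraries held 14 reads of C3 in all, the ratio of summed reads, scaled for depth, was 4530 with a counting interval of 2700 to 8280. The acute-phase gene Saa3 had 12710 reads with TNF and 3 after siRNA, a ratio of 4100 with an interval of 1400 to 19900. C1s1, a protease of the classical complement pathway, moved in both directions from its control level of 99.8, 105 and 97.8 CPM, to 750.0, 728 and 763 with TNF and 28.3, 22.2 and 31.2 after siRNA. C1ra, its partner, did the same, from 88.3, 88.5 and 87.9 CPM to 331, 324 and 339.7 with TNF and 46.5, 42.3 and 48.9 after siRNA. The siRNA libraries were below control by -1.89 for C1s1 and -0.94 for C1ra on the log2 scale, and 7 of the 12 genes were below control after siRNA.

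Other genes with the largest differences had very few reads after siRNA, and most also had few in control cells. Tnip3 had 1787 reads with TNF and 1 after siRNA (ratio 1730, interval 310 to 68400), and Irg1, which encodes the enzyme that makes itaconate, had 571 and 1 (ratio 553, interval 98.9 to 21900). Spib, an ETS transcription factor gene, had 788 and 2 reads (ratio 382, interval 105 to 3160), and the chemokine gene Cxcl11 had 1063 and 3 (ratio 343, interval 117 to 1670). Ecscr, an endothelial cell surface gene, had 887 and 3 reads (ratio 286, interval 97.7 to 1390), and Ncf4, a subunit of the phagocyte NADPH oxidase, had 1026 and 4 (ratio 248, interval 96.8 to 914). In the 3 control libraries together, Tnip3 had 2 reads, Irg1 and Cxcl11 1 each, Spib 9, Ecscr 10 and Ncf4 48. The endothelial marker Tek was lower with TNF, and Pecam1 and Cdh5, also endothelial, and the leukocyte markers Ptprc, Adgre1 and Itgam were too low to test. Enpp2, which encodes autotaxin, was well covered on both sides, at 319.7, 307 and 305 CPM with TNF, 2.24, 3.23 and 2.84 after siRNA and 13.9, 13.2 and 12.9 in control cells. Its log2 difference was 6.80 (SE 0.09), with TNF above and siRNA below control.

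**Figure D2:**
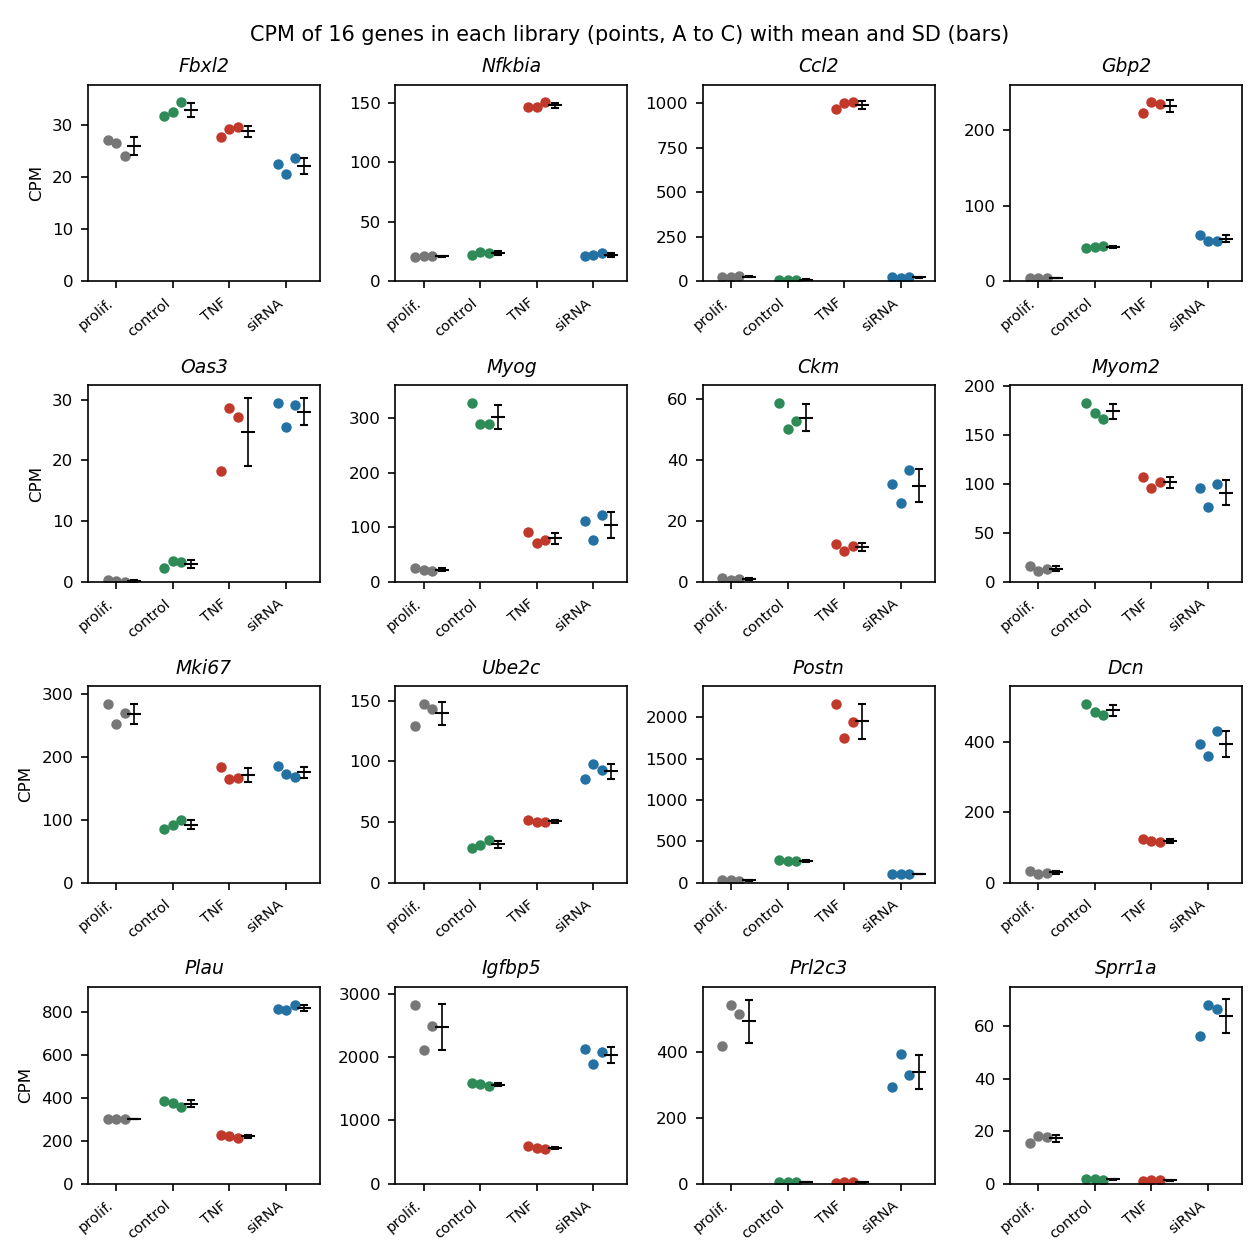
CPM of 16 genes in each of the 12 libraries (vertical axes, linear from 0), with proliferating, control, TNF and Fbxl2 siRNA cells along the horizontal axis; bars beside the points give the mean and SD of 3 libraries. Nfkbia, Ccl2 and Postn are high in the TNF libraries, Plau, Prl2c3 and Sprr1a in the siRNA libraries, and Myog and Myom2 overlap between them.

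Interferon-stimulated genes stood above control in both groups. The labels do not say whether control or TNF-treated cells received a non-targeting siRNA. Effects of lowered Fbxl2 and of giving siRNA therefore cannot be told apart, for these or other genes. Of 47 tested, 47 were above control with TNF and 44 after siRNA, at adjusted p under 0.05. Against each other, 41 were higher with TNF, 1 was lower and 5 were not called, with a median of 0.86. Gbp2, which encodes a guanylate-binding protein of cell-autonomous defense, was at 223, 237 and 236 CPM with TNF, 61.5, 53.9 and 53.6 after siRNA, 43.5, 45.3 and 46.2 in control cells and 4.41, 3.87 and 4.83 in proliferating cells. TNF libraries were highest, the siRNA libraries came next, and no 2 of these groups overlapped. The log2 difference between TNF and siRNA was 2.04 (SE 0.06, adjusted p = 2.18e-17). Gbp5 and the immunity-related GTPase gene Tgtp1 were 3.86 and 2.49 higher with TNF. Usp18, a negative regulator of interferon signaling, had a difference of 0.27 that did not pass (adjusted p = 0.0565) but did under 5 of 16 alternatives, at 0.40 without replicate A of TNF.

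The Gbp2 promoter is shown with its match to TTTC repeated after a gap of 2 bases of any kind, a core shared by interferon response elements, in capitals (both strands searched, 250 bases before the start, RefSeq, GRCm38.p6, chr3:142620413-142620662, plus strand).
Gbp2: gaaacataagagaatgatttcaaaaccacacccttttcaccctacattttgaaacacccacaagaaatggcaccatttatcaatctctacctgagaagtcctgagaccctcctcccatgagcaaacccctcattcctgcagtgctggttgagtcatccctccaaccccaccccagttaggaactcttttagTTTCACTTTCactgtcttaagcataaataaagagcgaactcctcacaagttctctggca
The match began 59 bases before the start. The motif was present in 3.8% of all promoters and in 23 of the 37 interferon-stimulated genes with a promoter entry.

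Members of that list spanned a wide range, and the following genes were chosen after their values were seen, with no test between families. Named members of the 2',5'-oligoadenylate synthetase family, which senses double-stranded RNA, lay on both sides of 0. Oas3 was at 18.3, 28.5 and 27.2 CPM with TNF and 29.4, 25.5 and 29.1 after siRNA, against 2.28, 3.52 and 3.27 in control cells. The perturbed groups overlapped, with a log2 difference of -0.19 (SE 0.17) that was not called (adjusted p = 0.357), and each was above control, by 3.04 with TNF and 3.22 after siRNA. Oasl2 was 0.40 higher with TNF, and Oasl1 was lower with TNF at -0.78 (adjusted p = 0.00187), the 1 gene of the list called lower. The transcription factor gene Irf1, by contrast, was 1.23 higher with TNF. Reads of the Oas and Gbp families may be shared between near-identical copies.

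All 20 tested genes of MHC class I and peptide loading were above control in both groups, and 19 were higher with TNF than after siRNA, with a median of 1.02. Psmb8 and Psmb9, subunits of the immunoproteasome, were 1.98 and 1.96 higher with TNF. H2-Q4, a class I heavy chain with close copies, was 1.72 higher. B2m, the light chain of class I molecules, was at 2883, 2832 and 2905 CPM with TNF, 1289, 1226 and 1311 after siRNA and 1096, 1134 and 1143 in control cells, and H2-K1, a heavy chain, at 1371, 1499 and 1482 with TNF, 595, 574 and 615 after siRNA and 352, 403 and 395 in control cells. In both genes the siRNA libraries lay between control and TNF; these 2 were picked after their values were seen. The 1 gene lower with TNF was Nlrc5, a transactivator of class I genes, at 9.85, 13.5 and 12.5 CPM with TNF and 16.9, 14.3 and 16.3 after siRNA (log2 difference -0.41, adjusted p = 0.00867). It was not called without replicate A of TNF (-0.28), nor without the A or C libraries of every group (-0.23 and -0.42).

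**Figure D3:**
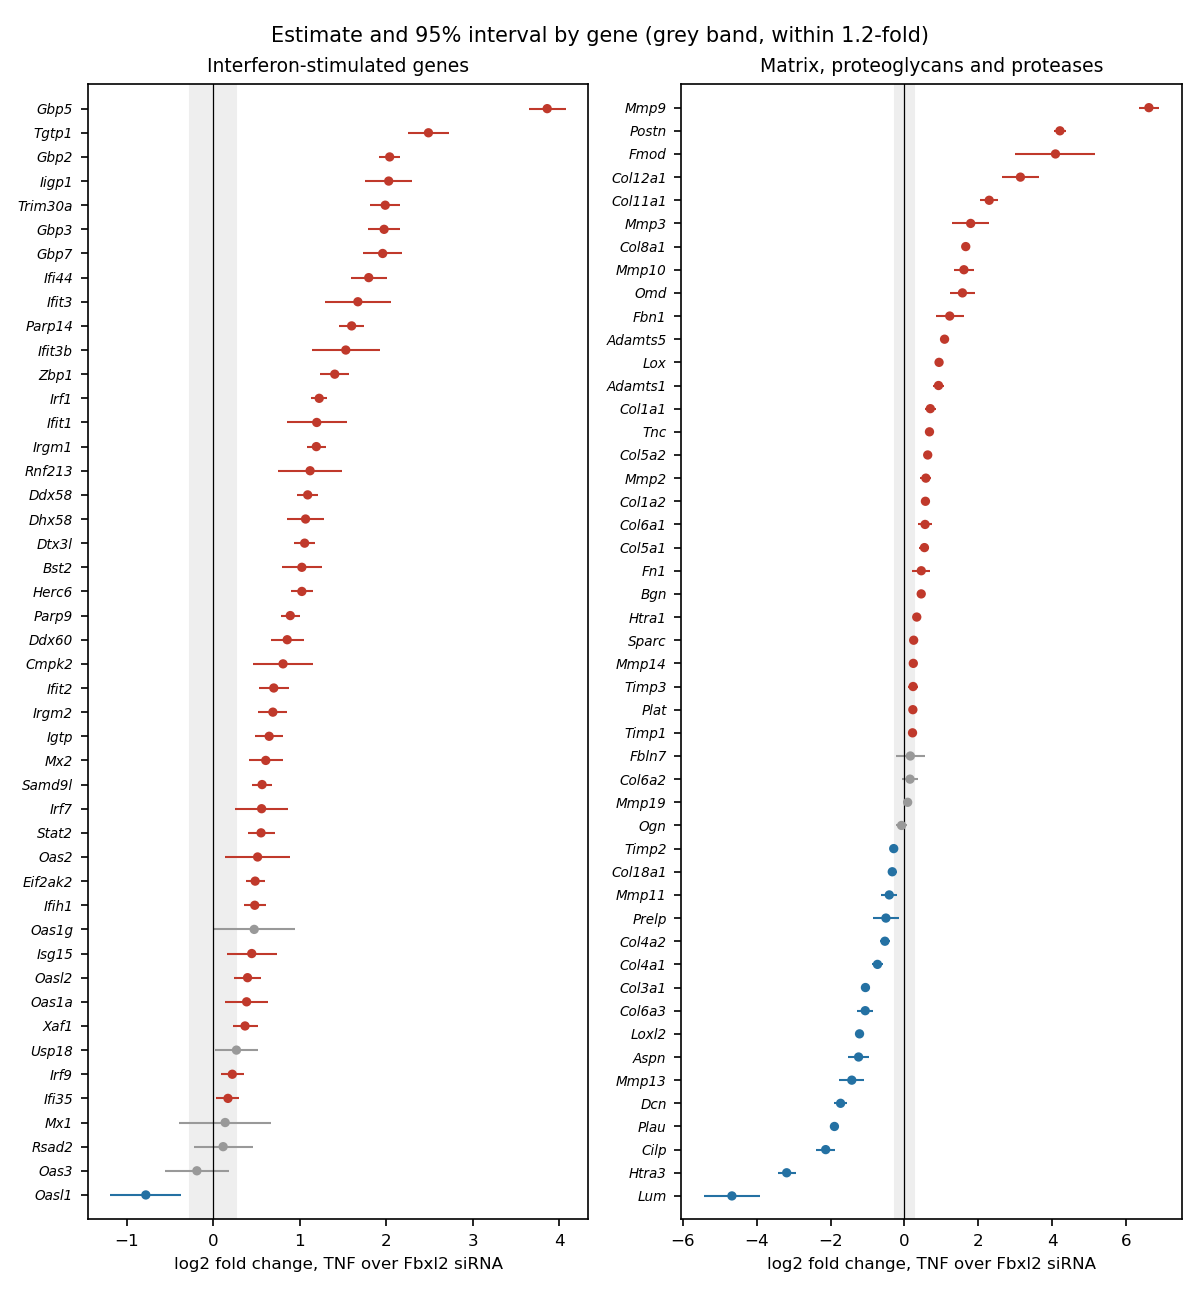
Log2 fold change (TNF over Fbxl2 siRNA, horizontal axes) of tested interferon-stimulated genes (left) and tested genes of the matrix, proteoglycan and protease lists (right), leaving out 1 gene on each side that is not reported, with 95% intervals; red and blue mark genes called higher and lower with TNF, grey points were not called, and the grey band marks 1.2-fold. On the left, Gbp5 lies at the top at 3.86 and Oasl1 at the bottom at -0.78, and the right panel runs from Mmp9 at 6.61 to Lum at -4.67.

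Differentiation genes were mostly below control in both groups, and most were lower with TNF. Of 11 tested myogenic regulators, 7 were lower with TNF, 2 were higher and 2 were not called, with a median of -0.38. In each group 9 of the 11 were below control. Myod1, the transcription factor that commits cells to muscle, was at 45.7, 45.8 and 42.3 CPM with TNF, 56.0, 52.0 and 57.1 after siRNA and 99.8, 98.6 and 93.2 in control cells. The 3 groups did not overlap, and the log2 difference was -0.30 (SE 0.05, adjusted p = 3.98e-05). Proliferating cells were at 73.5, 74.1 and 76.5 CPM, above both perturbed groups. Myog, which drives terminal differentiation, was at 91.4, 70.6 and 77.7 CPM with TNF, 113, 77.3 and 123 after siRNA, 328, 289.6 and 289.7 in control cells and 25.2, 21.4 and 21.0 in proliferating cells. TNF and siRNA libraries overlapped well under control, and their difference of -0.38 (SE 0.17) did not pass the test (adjusted p = 0.0824, 95% interval -0.77 to 0.01), though it did under 4 of 16 alternatives, at -0.56 without replicate B of the siRNA group. Mef2c, a partner of the myogenic factors, and Tead4, which acts with them at muscle promoters, were 1.00 and 0.84 lower with TNF on the log2 scale. Myf5, an early myoblast factor, was at 37.1, 37.2 and 36.3 CPM with TNF, 61.0, 64.2 and 59.4 after siRNA and 44.5, 43.5 and 44.6 in control cells, so that siRNA libraries were above control and TNF libraries below. Pax7, the satellite cell factor, was at 12.5, 13.1 and 13.1 CPM with TNF, 9.84, 8.81 and 8.51 after siRNA and 17.7, 20.6 and 19.1 in control cells, and was 0.51 higher with TNF than after siRNA.

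Cell fusion and adhesion genes split: 7 of 17 were higher with TNF, 8 were lower and 2 were not called. Over all genes tested, 29.9% were higher and 30.6% lower. The genes for the membrane fusion proteins Myomaker and Myomixer, listed as Tmem8c and Gm7325, were below control in both groups. Both genes were above their levels in proliferating cells, which held 6.68, 4.73 and 5.42 CPM of Tmem8c and 1.28, 1.04 and 1.05 of Gm7325. Tmem8c was at 50.2, 38.8 and 45.2 CPM with TNF and 67.2, 46.6 and 73.1 after siRNA, against 188, 169.9 and 161 in control cells, and the perturbed groups overlapped (log2 difference -0.47, adjusted p = 0.0383). That call was lost under 8 of 16 alternatives. It was lost without replicate B or C of TNF or replicate A or C of siRNA (differences -0.38, -0.48, -0.41 and -0.34), without the A or C libraries of every group (-0.51 and -0.35), with the 6 libraries alone (-0.47) and with no filter beyond 1 count (-0.47). Gm7325 was at 8.79, 7.8 and 7.55 CPM with TNF, 16.4, 13.4 and 17.8 after siRNA and 26.0, 23.5 and 23.2 in control cells, without overlap (log2 difference -0.97, adjusted p = 3.54e-08). Cdh15, which encodes M-cadherin, and Jam2 were 0.86 and 0.73 lower with TNF. Adam12, a metalloprotease of fusing myoblasts, went the other way at 71.3, 65.8 and 67.0 CPM with TNF, 27.1, 21.5 and 27.3 after siRNA and 77.6, 72.0 and 74.9 in control cells. The siRNA libraries alone were far from control, and the log2 difference was 1.43 (SE 0.07).

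Genes of the contractile apparatus followed the same order. In the thick filament 11 of 14 were lower with TNF and none was higher (median -0.90), in the thin filament 12 of 14 were lower and 1 was higher (median -0.79), and in the Z-disc, M-band and their assembly factors 11 of 17 were lower and none was higher (median -0.66). Without the C libraries of every group, 6 genes were lower with TNF in each of the 3 lists. With replicate letters as a block 1 thick filament gene and 1 Z-disc gene were higher with TNF, as was 1 thick filament gene without replicate B of TNF or C of siRNA and 1 Z-disc gene without replicate A of siRNA. With TNF, all 14 thick filament genes were below control, and 13 were after siRNA. Embryonic myosin Myh3 was at 193, 124 and 143 CPM with TNF, 266, 164 and 284 after siRNA and 838, 691 and 681 in control cells. Proliferating cells held 7.5, 5.4 and 6.05 CPM of Myh3, far under every other group. The perturbed groups overlapped, and the log2 difference of -0.63 (SE 0.23) had an adjusted p of 0.0435, a call that was lost under 8 of 16 alternatives. These were the fits without replicate B or C of TNF or replicate A or C of siRNA (differences -0.50, -0.58, -0.55 and -0.49), without the A or C libraries of every group (-0.75 and -0.44), with the 6 libraries alone (-0.63) and with no filter beyond 1 count (-0.63). Neonatal myosin Myh8 was at 3.61, 2.43 and 3.19 CPM with TNF and 11.8, 7.11 and 11.7 after siRNA, and the fast troponin Tnnc2 at 20.7, 15.2 and 17.3 with TNF and 55.0, 39.3 and 56.9 after siRNA. Neither overlapped, and their log2 differences were -1.71 (SE 0.34) and -1.50 (SE 0.17). Cardiac actin Actc1, troponin Tnnt3 and the Z-disc actinin Actn2 were 1.27, 1.2 and 1.22 lower with TNF.

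A few of these genes broke the order. Tpm1, a tropomyosin also made outside muscle, was at 1877, 1815 and 1889 CPM with TNF, 1126, 1104 and 1096 after siRNA and 1791, 1766 and 1771 in control cells, and was 0.75 higher with TNF. Myom2, an M-band protein, overlapped at 108, 96.5 and 102 CPM with TNF and 96.2, 76.6 and 100.4 after siRNA, against 183, 173 and 167 in control cells (log2 difference 0.16, adjusted p = 0.217). Desmin, the muscle intermediate filament encoded by Des and a marker of myoblasts, was at 696, 749 and 737 CPM with TNF, 1269, 1260.0 and 1298 after siRNA and 1207, 1220.0 and 1176 in control cells. The siRNA libraries were near control, the TNF libraries far below both, and the log2 difference was -0.81 (SE 0.05).

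**Figure D4:**
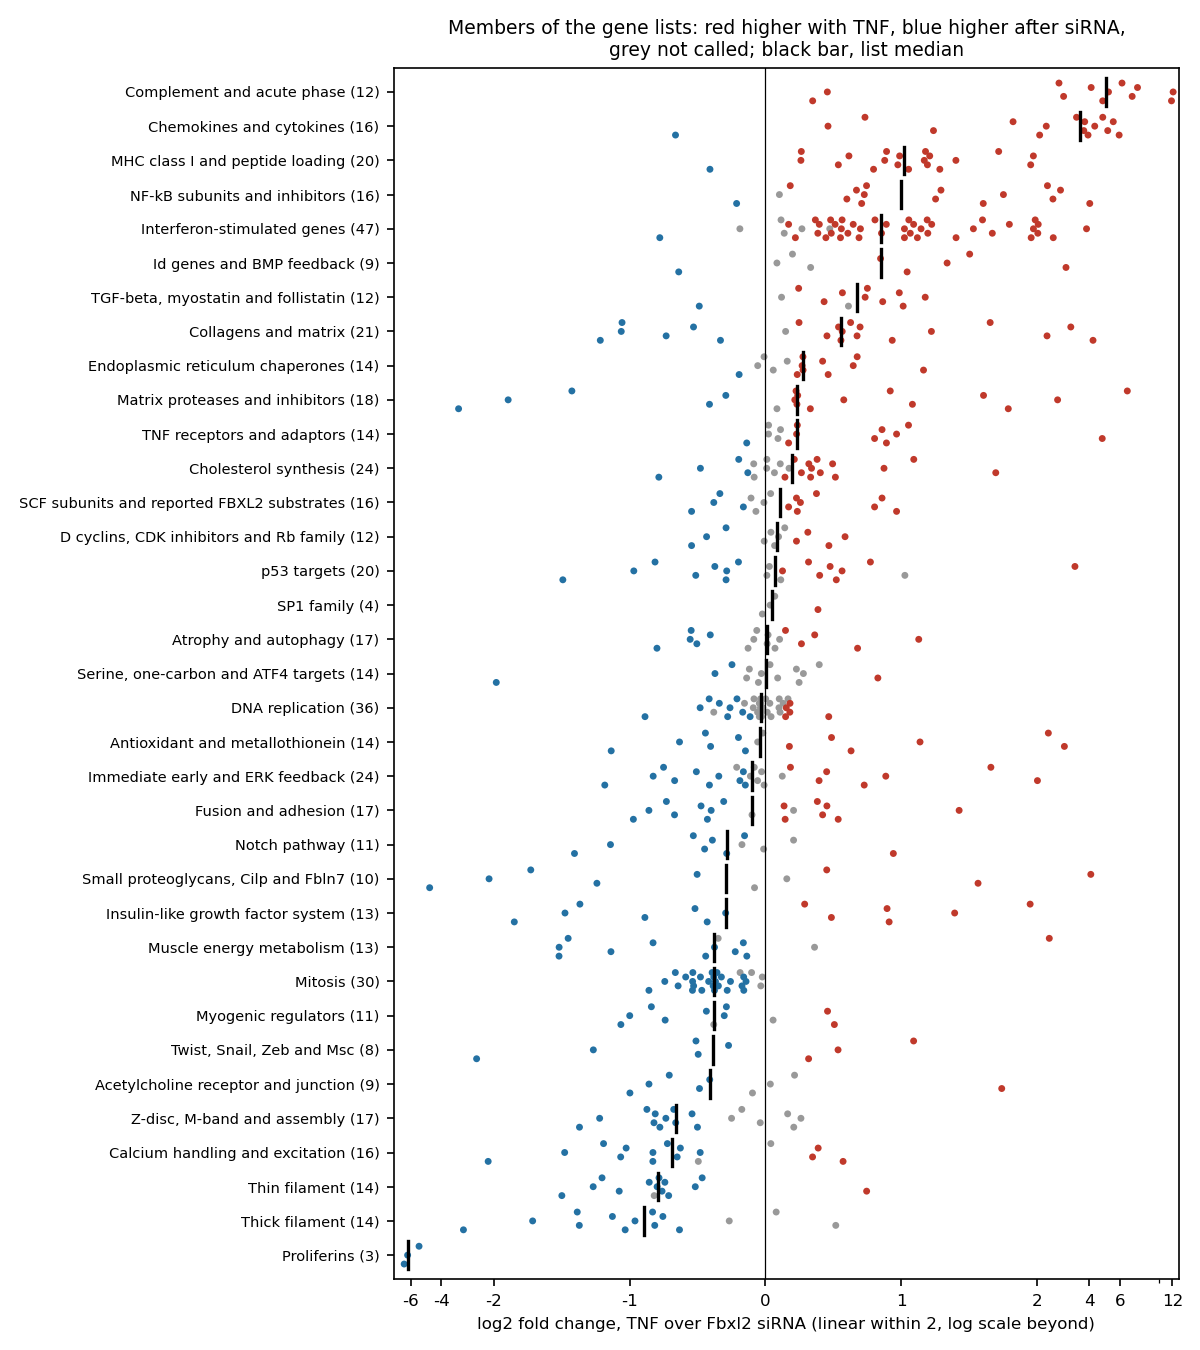
Log2 fold change (TNF over Fbxl2 siRNA, horizontal axis, linear within 2 and log beyond) of every tested member of each gene list, 1 point per gene and 1 row per list with the number tested in brackets; red, higher with TNF, blue, higher after siRNA, grey, not called, black bar, median of the list. Complement and chemokine lists have medians of 4.97 and 3.55, the thick, thin and Z-disc lists medians of -0.90, -0.79 and -0.66, and the DNA replication list one of -0.03.

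Calcium handling and excitation genes were lower with TNF in 11 of 16 cases and higher in 3 (median -0.69). The calcium pump Atp2a1, the calcium-binding protein Hrc and the channel subunit Cacna1s were 1.19, 1.07 and 1.03 lower, and Ryr3, Jph1 and Jph2, a release channel and its anchoring junctophilins, were 0.57, 0.39 and 0.35 higher. At the neuromuscular junction, 5 of 9 genes were lower with TNF and 1 was higher. Musk, the receptor kinase that clusters acetylcholine receptors, was at 17.4, 16.2 and 17 CPM with TNF, 34.0, 31.3 and 36.0 after siRNA and 36.4, 33.3 and 35.2 in control cells, the siRNA libraries overlapping control. Agrn, whose product activates that kinase, was at 334, 379 and 382 CPM with TNF, 118, 93.3 and 116 after siRNA and 170.2, 184 and 189.9 in control cells, on opposite sides of control. Receptor subunit genes Chrnd, Chrng and Chrna1 were 0.86, 0.71 and 0.48 lower with TNF.

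Energy genes of muscle were lower with TNF in 10 of 13 cases (median -0.37). Ckm, muscle creatine kinase, was at 12.5, 10.2 and 11.7 CPM with TNF, 32.1, 25.9 and 36.8 after siRNA and 58.8, 50.1 and 52.8 in control cells. Groups did not overlap, and the log2 difference was -1.45 (SE 0.13, adjusted p = 5.91e-07). Proliferating cells held 1.38, 0.707 and 0.888 CPM of Ckm, under every other group. Myoglobin Mb and the glycogen phosphorylase gene Pygm were 1.52 and 1.52 lower. The exception was Pdk4, which encodes a kinase that restrains the entry of pyruvate into the citric acid cycle, at 106, 105 and 106 CPM with TNF, 21.6, 19.8 and 20.2 after siRNA and 55.8, 59.2 and 63.0 in control cells. Its log2 difference was 2.36 (SE 0.06), with TNF above control and siRNA below.

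Cell cycle genes stood above control in both groups. All 30 tested mitotic genes were above control with TNF and after siRNA, and 34 of 36 DNA replication genes were above control in each. Between the perturbations, 26 mitotic genes were lower with TNF, none was higher and 4 were not called (median -0.38), whereas 5 replication genes were higher, 9 were lower and 22 were not called (median -0.03). Of the 36 replication genes, 20 had intervals within 1.2-fold, against 26.8% of all genes. With the upper-quartile scaling 2 replication genes were higher with TNF, and without the C libraries of every group 2 were higher and 4 lower. The difference between the lists was not tested. Ube2c, a ubiquitin-conjugating enzyme of mitotic exit, was at 52.1, 50.1 and 49.8 CPM with TNF, 85.3, 97.6 and 92.7 after siRNA, 29.0, 31.5 and 34.9 in control cells and 129, 148 and 143 in proliferating cells. TNF libraries lay between control and siRNA, and the log2 difference was -0.86 (SE 0.06, adjusted p = 3.56e-10). The centromeric histone Cenpa and the anaphase activator Cdc20 were 0.74 and 0.66 lower with TNF. Mki67, the proliferation marker, was not called. It was at 184, 164 and 165 CPM with TNF and 185, 173 and 168 after siRNA, above 85.6, 91.9 and 99.2 in control cells, with a 95% interval of the log2 difference of -0.16 to 0.09.

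Among 12 regulators of the G1 phase, 4 were higher with TNF, 3 were lower and 5 were not called. Over all genes tested, 29.9% were higher and 30.6% lower, so the list lay near those shares. The D cyclins differed in direction. Ccnd1 was 0.31 higher with TNF, and Ccnd3, a reported substrate of FBXL2, was at 142, 148 and 139.9 CPM with TNF, 207, 197 and 222 after siRNA and 282, 287 and 274 in control cells, 0.54 lower with TNF. Cdkn1a, which encodes the inhibitor p21 and rises when myoblasts leave the cycle, was at 276, 270.4 and 269 CPM with TNF, 339.5, 314 and 344 after siRNA and 544, 512 and 510.4 in control cells. Both groups were below control, and the log2 difference was -0.29 (SE 0.05, adjusted p = 2.26e-05). The activator E2f2 was at 32.4, 34.5 and 30.8 CPM with TNF, 60.1, 59.7 and 60.8 after siRNA and 52.8, 53.3 and 51.0 in control cells, and Rrm1, a subunit of ribonucleotide reductase, was 0.47 higher with TNF. Among SCF subunits and reported substrates of FBXL2, 8 of 16 were higher with TNF, Fbxl2 itself among them, 4 were lower and 4 were not called; Skp1a, a core SCF subunit, had an interval within 1.2-fold.

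**Figure D5:**
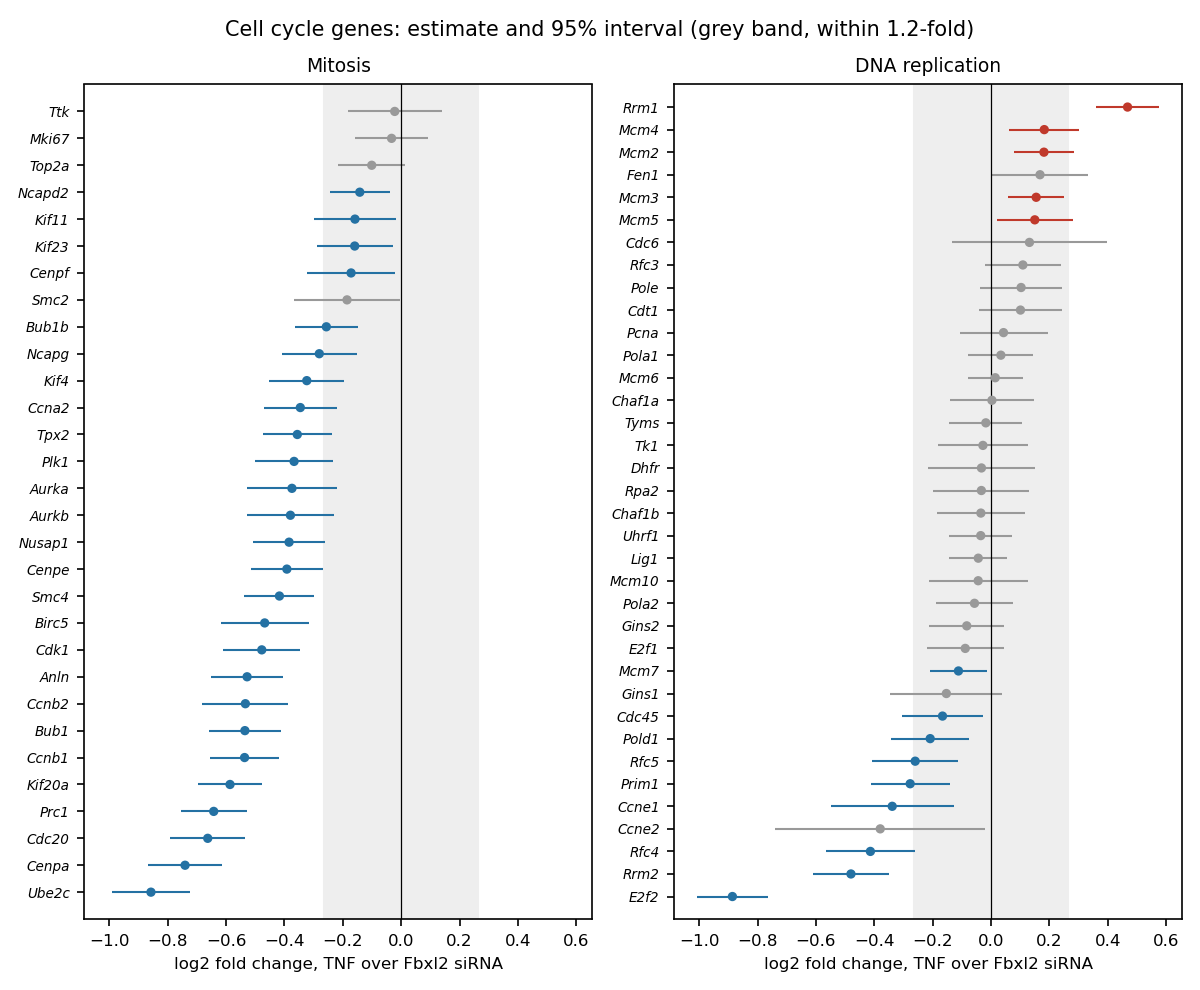
Log2 fold change (TNF over Fbxl2 siRNA, horizontal axes) of each tested mitotic gene (left) and DNA replication gene (right), with 95% intervals; red and blue mark genes called higher and lower with TNF, grey points were not called, and the grey band marks 1.2-fold. The 30 mitotic genes lie below 0, from Ube2c at -0.86, while the replication genes cluster around 0 with E2f2 at -0.89.

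Matrix genes formed opposite groups. Of 21 tested collagens and matrix proteins, 14 were higher with TNF, 6 were lower and 1 was not called (median 0.56). Postn, which encodes periostin, was at 2161, 1747 and 1937 CPM with TNF, 106, 109.8 and 101 after siRNA and 279, 265 and 258 in control cells. TNF libraries were above and siRNA libraries below control, and the log2 difference was 4.21 (SE 0.08, adjusted p = 6.00e-18). Col12a1, a fibril-associated collagen, was at 1116, 764 and 813 CPM with TNF, 118, 88.1 and 100.3 after siRNA and 762, 770.4 and 765 in control cells. There the TNF libraries straddled the control and the siRNA libraries were far lower, with a log2 difference of 3.14 (SE 0.22). Col11a1 was 2.29 higher with TNF. In the other direction, the fibrillar collagen Col3a1 was at 4023, 3766 and 4029 CPM with TNF, 8317, 7843 and 8405 after siRNA and 5982, 5961 and 5946 in control cells, and the cross-linking enzyme Loxl2 at 177, 178 and 177 with TNF, 409.8, 401 and 424 after siRNA and 198, 196 and 190.3 in control cells. The siRNA libraries were above control for both, and the log2 differences were -1.06 (SE 0.06) and -1.22 (SE 0.04).

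Among small proteoglycans and related matrix genes, 3 of 10 were higher with TNF and 5 were lower (median -0.29). The shares over all genes tested were 29.9% and 30.6%. Decorin, Dcn, was at 124, 118 and 114 CPM with TNF, 392.5, 358 and 430.1 after siRNA and 507, 482 and 476 in control cells, a log2 difference of -1.73 (SE 0.08) between the perturbations. Cilp was at 11.2, 8.61 and 11.2 CPM with TNF, 49.6, 38.2 and 48.4 after siRNA and 163, 150.4 and 141 in control cells. Both genes were below control in both groups and lowest with TNF. Ogn, or osteoglycin, overlapped between the perturbations, at 796, 655 and 672 CPM with TNF and 779.8, 708 and 755 after siRNA, while control cells held 2288, 2230.0 and 2170.0, although without replicate A of TNF it was called at -0.17. Omd, or osteomodulin, was 1.57 higher with TNF, and lumican, Lum, had 157 reads after siRNA and 6 with TNF (ratio 27, counting interval 12.1 to 74.7).

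Matrix proteases and their inhibitors were higher with TNF in 12 of 18 cases and lower in 5. Mmp9, a gelatinase, was at 91.4, 79.0 and 89.1 CPM with TNF, 0.959, 1.09 and 0.567 after siRNA and 1.47, 0.905 and 0.791 in control cells, a log2 difference of 6.61 (SE 0.13). Plau, the urokinase gene, was at 225, 221 and 213 CPM with TNF, 812, 807 and 833 after siRNA and 386, 374 and 354 in control cells. The perturbations lay on opposite sides of control, and the log2 difference was -1.89 (SE 0.05). Htra3, a serine protease, was at 5.12, 4.56 and 5.07 CPM with TNF and 42.5, 41.1 and 51.0 after siRNA, the latter overlapping 44.9, 48.4 and 43.2 in control cells, with a log2 difference of -3.19 (SE 0.12). Mmp13 was 1.43 lower with TNF.

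Growth factor systems were also divided. In the insulin-like growth factor system, 6 of 13 genes were higher with TNF and 7 were lower. Every gene was thus called, against 60.5% of all genes tested. Igf1, the muscle growth factor, was at 39.9, 27.5 and 31.0 CPM with TNF, 12.8, 12.3 and 12.4 after siRNA and 50.8, 45.0 and 40.9 in control cells, 1.4 higher with TNF. Igfbp5, a binding protein induced in differentiating myoblasts, was at 585, 556 and 549 CPM with TNF, 2127, 1890.0 and 2077 after siRNA and 1585, 1571 and 1537 in control cells. It was below control with TNF and above after siRNA, a log2 difference of -1.85 (SE 0.08). Igfbp3 and Igfbp6 were 1.48 and 1.37 lower with TNF and Igfbp7 was 1.95 higher.

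Of 12 genes of the TGF-beta, myostatin and follistatin system, 9 were higher with TNF and 1 was lower (median 0.67). Fst, the antagonist follistatin, Inhba, a subunit of activin, and Ltbp1, which stores latent TGF-beta, were 1.18, 1.02 and 0.99 higher. The receptor Tgfbr2 was at 567, 536 and 546 CPM with TNF, 310.5, 287 and 308 after siRNA and 585, 578 and 570.1 in control cells. Of 9 Id genes and genes of bone morphogenetic protein feedback, 5 were higher with TNF and 1 was lower (median 0.85). Bmp4, one of these signals, was at 43.0, 38.6 and 44.8 CPM with TNF, 5.75, 5.28 and 5.41 after siRNA and 24.5, 23.6 and 22.3 in control cells, on opposite sides of control, with a log2 difference of 2.94 (SE 0.08). Its antagonist Grem1 and the inhibitory Smad7 were 1.34 and 1.05 higher, and Id1, a target of that pathway, was 0.64 lower.

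Notch pathway genes were lower with TNF in 7 of 11 cases and higher in 1 (median -0.28), with 4 lower when replicate C of TNF or replicate A or C of siRNA was left out. The effector Hey1 was at 4.99, 5.88 and 6.55 CPM with TNF, 15.3, 14.7 and 16.1 after siRNA and 14.4, 15.5 and 15.2 in control cells, and Heyl was 1.14 lower with TNF, while the ligand Jag1 was 0.94 higher. Msc, or musculin, a repressor of myogenic factors, was at 3.77, 4.82 and 4.25 CPM with TNF, 23.2, 24.9 and 24.9 after siRNA and 4.34, 4.005 and 4.24 in control cells. Only the siRNA libraries were raised, and the log2 difference was -2.51 (SE 0.09). In its list of 8 repressors and related factors 3 were higher with TNF and 5 were lower, among which Sox9 was 1.27 lower with TNF and Zeb1 was 1.09 higher.

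Some lists of genes that mark cell types leaned to TNF or to siRNA, and others were split. For comparison with the counts below, 29.9% of all genes tested were higher with TNF and 30.6% were lower. Summed over 8 smooth muscle markers, the level was 4520 to 4680 CPM with TNF, 2223 to 2341 after siRNA and 3836 to 4038 in control cells. Of the 7 that could be tested, 6 were higher with TNF. Tagln, an actin-binding protein of smooth muscle, was at 727, 642 and 682 CPM with TNF, 205, 200.3 and 202 after siRNA and 511, 472 and 480.5 in control cells, and Cnn1 was 2.70 higher with TNF. The 8 fibroblast markers, 6 of them lower with TNF and several shared with the matrix lists, summed to 4537 to 4800 CPM with TNF and 9113 to 9756 after siRNA. Control cells held 7028 to 7108 CPM, between the perturbations, and most of each sum was Col3a1, described above. The 8 myoblast markers, 6 of them lower with TNF, summed to 2472 to 2535 CPM with TNF and 2707 to 2971 after siRNA. Control cells held 3297 to 3408 CPM, above both. The 7 adipocyte markers summed to 33.9 to 36 CPM with TNF, 52.8 to 53.2 after siRNA and 51.4 to 53.8 in control cells. Only 4 of these could be tested, and all 4 were lower with TNF. Of 7 markers of reserve cells 3 were higher with TNF and 3 lower, and of 5 osteoblast markers 1 was higher and 3 lower. The 8 macrophage markers summed to 12.3 to 13.5 CPM with TNF, 14.3 to 16.8 after siRNA and 8.93 to 10.6 in control cells. Of the 4 that could be tested, 1 was higher with TNF, 1 was lower and 2 were not called. Of 6 endothelial markers only Tek, a receptor for angiopoietins, could be tested. It was lower with TNF, at 0.576, 0.662 and 0.567 CPM against 2.06, 1.46 and 2.23 after siRNA and 2.31, 2.26 and 2.41 in control cells (log2 difference -1.66). The defining endothelial markers Pecam1 and Cdh5 and the leukocyte markers Ptprc, Adgre1 and Itgam were at or near 0 in all groups. The part of any other cell type in the gene differences was not tested.

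The genes with the largest differences in the other direction, high after siRNA, included the proliferins. These are prolactin-family hormones first known from growing mouse fibroblasts, made from near-identical genes between which reads may be divided. Prl2c3 was at 292, 392.4 and 328 CPM after siRNA, 2.94, 4.93 and 3.15 with TNF, 3.18, 3.2 and 3.56 in control cells and 418, 542 and 514 in proliferating cells. The siRNA libraries lay far above control, though under the proliferating libraries, and the TNF libraries overlapped the control. The log2 difference was -6.53 (SE 0.20) with an adjusted p of 8.30e-10. Prl2c2 was lower with TNF by 6.24 on the log2 scale, at 129, 185 and 141 CPM after siRNA and 151, 191 and 177 in proliferating cells. Prl2c5 had 737 reads after siRNA and 18 with TNF, a ratio of 42.3 with a counting interval of 26.6 to 71.7.

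Sprr1a, a small proline-rich protein of the cornified envelope also known from stressed heart muscle, was at 56.3, 68.2 and 66.6 CPM after siRNA, 1.12, 1.29 and 1.49 with TNF, 1.77, 1.81 and 1.44 in control cells and 15.6, 18.3 and 17.8 in proliferating cells. The siRNA libraries exceeded every other group, and the log2 difference was -5.62 (SE 0.12, adjusted p = 1.61e-19). Its promoter is shown with matches to TGANTCA, the AP-1 core searched after the data had been seen, in capitals (both strands, 250 bases before the start, RefSeq, GRCm38.p6, chr3:92485882-92486131, minus strand).
Sprr1a: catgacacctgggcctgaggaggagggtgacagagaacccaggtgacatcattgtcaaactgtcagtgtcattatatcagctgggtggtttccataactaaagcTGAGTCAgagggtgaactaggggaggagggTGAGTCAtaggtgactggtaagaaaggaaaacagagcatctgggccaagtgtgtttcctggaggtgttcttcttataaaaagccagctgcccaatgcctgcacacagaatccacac
The matches began 146 and 116 bases before the start. The motif was present in 19.5% of the 123 promoters of genes at least 4-fold higher after siRNA, 11.4% of the 175 at least 4-fold higher with TNF and 6.59% of all. CAGCTG, an E-box form bound by myogenic factors, was present in 30.9%, 18.3% and 18.3% of the same sets, and GGGCGG in 35%, 45.1% and 68.1%.

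Other genes high after siRNA had varied roles. Hdc, the enzyme that makes histamine, was at 38.5, 45.7 and 40.7 CPM after siRNA and 1.57, 1.88 and 1.95 with TNF, with a log2 difference of -4.54 (SE 0.11). Control cells were at 2.34, 2.16 and 2.09 CPM, and TNF against control did not pass the test (adjusted p = 0.146). Rgs2, a regulator of G protein signaling, was at 15.4, 15.6 and 15.5 CPM after siRNA, 0.704, 0.588 and 0.638 with TNF and 8.27, 9.4 and 8.63 in control cells, on opposite sides of control. Csn3, a casein, and Krt13, a keratin, were 4.92 and 4.19 lower with TNF on the log2 scale. Csn3 was at 11.8, 13.2 and 14.2 CPM after siRNA, above 6.38, 6.55 and 6.18 in proliferating cells. Krt13 was at 4.97, 6.81 and 5.52 CPM after siRNA, below 12.9, 15.1 and 16.8 in proliferating cells. Phex, an endopeptidase of bone cells, was 3.39 lower with TNF, and Spp1, osteopontin, was at 1263, 1317 and 1331 CPM with TNF, 2125, 2319 and 2258 after siRNA and 1117, 1113 and 1168 in control cells, above control in both.

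Stress and metabolic lists were mixed. For comparison, 29.9% of all genes tested were higher with TNF and 30.6% were lower. In the serine, one-carbon and ATF4 target list 10 of 14 genes were not called, 1 was higher with TNF and 3 were lower. The number higher was 5 with the 6 libraries alone, 4 without the A libraries of every group, 0 without the C libraries and 1 or 2 under the other alternatives. Atf3, a stress-induced repressor, was at 4.29, 4.96 and 3.9 CPM with TNF, 16.2, 18.1 and 17.6 after siRNA and 7.97, 8.53 and 6.76 in control cells. Of 14 genes listed for endoplasmic reticulum chaperones and related factors, 9 were higher with TNF, led by Herpud1 at 1.17. Of 24 cholesterol synthesis genes, 23 were above control with TNF and 22 after siRNA. Between the perturbations 13 of them were higher with TNF and 4 lower (2 lower without replicate B of siRNA or the B or C libraries of every group), among them Cyp51 at 1.09 and Pmvk at -0.78. Of 14 antioxidant and metallothionein genes, 6 were higher with TNF and 6 lower, among them the superoxide dismutase Sod3 at 2.88, metallothionein Mt2 at 2.33 and sulfiredoxin Srxn1 at -1.14. Of 24 immediate early and ERK feedback genes, 7 were higher with TNF and 10 lower: Egr2 and Junb were 2.02 and 1.66 higher, and Klf4 and Fosl1 were 1.18 and 0.83 lower. Of 20 p53 targets, 8 were higher with TNF and 8 lower, with the death receptor Fas 3.31 higher and the cytokine Gdf15 1.49 lower. Of 17 atrophy and autophagy genes, 5 were higher with TNF, 5 lower (8 with the upper-quartile scaling) and 7 not called, with Foxo1 at 1.13. Both counts of 5 lay near the shares over all genes.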

How the data were processed

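Cells were profiled by mRNA sequencing in 12 libraries, 3 per group. The authors deposited a table of raw read counts per gene, and the submitters' processing notes name CASAVA, DESeq2 and the mm10 build. What aligned and counted the reads, with which strand setting and gene models, was not given in the sources used here. Overlapping, antisense and near-identical genes are therefore uncertain.

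Counts of 12736 genes that passed edgeR's filterByExpr (edgeR 4.0.16, R 4.3.3) were scaled by TMM and fitted with 1 mean per group over all 12 libraries, and TNF was tested against Fbxl2 siRNA with the quasi-likelihood test. Genes with Benjamini-Hochberg adjusted p under 0.05 were called. Library totals of all 12 ran from 26416978 to 32917763 counts. The fit was tested on simulated data. With group means removed, same-lettered TNF and siRNA libraries correlated at r = -0.01, 0.07 and -0.02 for A, B and C. Different letters gave -0.08 to 0.09, so the letters were not used as pairs. Such values cannot exclude structure shared by letter. In the titles the A libraries carry S numbers 1 to 4 and the B and C libraries 10 to 17, and the labels do not explain these numbers.

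The comparison and the 43 gene lists (624 genes, of which 587 were tested, 35 fell below the filter and 2 had no row) were chosen with earlier results of these data known. Named genes were a fixed set, the 8 largest differences each way among called genes of at least 5 CPM whose groups did not overlap, the 3 smallest p-values each way, the 3 largest each way and the highest gene not called in each list, members within 1.2-fold, and any member of lists of up to 16 genes. Promoter windows came from RefSeq (GRCm38.p6) and gene positions from GENCODE M21. Alternatives were DESeq2 1.42.0, other scalings and filters, a replicate block, the 6 libraries alone, omitted libraries, and other promoter windows and thresholds. Values of some list members are not reported here.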

Additional observations from a re-analysis of the deposited data

How the results depend on the processing

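Across 16 alternatives the count of called genes ran from 5701, without the C libraries of every group, to 7833 with replicate letters as a block. Of the genes called in the reported fit, 5664 and 7654 were called under these 2, and 7214 with DESeq2 (7313 called). Leaving out 1 library gave 6997 to 7370. Genes at least 2-fold apart numbered 1081 to 1570 under all alternatives, against 1352 reported. Genes within 1.2-fold numbered 1913 in place of 3418 without the C libraries of every group, where fewer samples widen intervals. With a threshold of 2-fold in place of 4-fold, the kappaB consensus was present in 14% of promoters of genes higher with TNF, and GGGCGG in 56.8% for TNF and 51.7% for siRNA; the cause was not tested.

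Of 168 named genes, 157 kept their direction and their side of the threshold under all 16 alternatives. The replicate block called Myog at -0.37, Myom2 at 0.17 and Usp18 at 0.26 and changed no other call among the named genes. In 2 genes a difference that was not called changed sign: Oas3 was 0.0304 without the A libraries of every group, and Mki67 ranged from -0.0865 to 0.00665 when 1 library was left out. Depth limits the genes near 0 after siRNA, such as C3 and Saa3, whose ratios have wide counting intervals.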

Other observations

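The genes named here stand outside the fixed gene lists and were chosen after their values were seen. Axin2, a feedback inhibitor of Wnt signaling, was at 22.1, 22.6 and 21.9 CPM with TNF, 0.888, 1.12 and 1.02 after siRNA and 7.61, 7.38 and 6.94 in control cells. The TNF libraries were above control and the siRNA libraries below, and the log2 difference was 4.45 (SE 0.12, adjusted p = 8.71e-18). Wnt10a, a Wnt ligand, was at 147, 149.5 and 154 CPM with TNF, 22.9, 23.8 and 21.4 after siRNA and 47.1, 48.1 and 46.4 in control cells. Jak2, a kinase of cytokine receptors, followed the same order at 389, 363 and 372 CPM with TNF, 52.6, 53.7 and 51.5 after siRNA and 81.0, 77.6 and 81.1 in control cells. Tlr2, a receptor for bacterial lipoproteins, was 3.38 higher with TNF on the log2 scale.

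Nefl, the light neurofilament, was at 149, 199.8 and 172 CPM after siRNA, 16.1, 20.8 and 19.6 with TNF, 10.3, 11.3 and 12.2 in control cells and 214, 265 and 253 in proliferating cells. The siRNA libraries lay between control and proliferating cells, and the log2 difference was -3.21 (SE 0.14, adjusted p = 6.26e-09). Its partner Nefm was 2.96 lower with TNF. Krt19 and Cldn1, a keratin and a tight junction protein, were 2.92 and 3.29 lower with TNF, and Areg, a ligand of the EGF receptor, was 2.23 lower.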
